A study of Sus scrofa with 6 samples.

Results

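The genes described here are platelet genes measured in RNA from peripheral blood mononuclear cells (PBMCs) of pigs. They were the rows of the deposited expression table whose symbol was PF4, PPBP, ITGA2B, ITGB3, GP9, GP6, TUBB1, SELP, TREML1 or CLEC1B. Of these 10 symbols, 9 were in the table, and they gave 10 rows of the 11564 rows in all, because PPBP was the symbol of 2 rows. GP9, which encodes a subunit of the von Willebrand factor receptor, named no row and was not analysed here.

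Platelets are cell fragments without a nucleus that are shed by megakaryocytes in the bone marrow, and they carry RNA made by the megakaryocyte. They adhere to collagen exposed in an injured vessel, release the contents of their granules and are linked to each other by fibrinogen bound to the integrin alphaIIb-beta3. PBMCs are lymphocytes and monocytes separated from blood, and platelets commonly remain in such preparations, so the level of platelet transcripts reads how much platelet RNA a preparation carried.

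RNA-seq libraries had been made from the PBMCs of 6 Yorkshire pigs, 3 labelled WT and 3 labelled leptin-overexpressing, all at 6 months of age. The leptin-overexpressing pigs were produced by somatic cell nuclear transfer from fetal fibroblasts that had been transfected with a pig leptin construct and selected with neomycin, and the controls were nontransgenic pigs. According to the description of the study, leptin was placed under a pig leptin promoter, and the sources used here do not say whether the 3 sequenced transgenic pigs came from 1 transfected clone, nor whether the control pigs were cloned. Platelet number was one of the blood measurements of the study, and the comparison here asked whether platelet transcripts in the PBMC libraries differed between the labelled genotypes. Libraries are called by their label and replicate number, with "leptin" short for leptin-overexpressing, and each replicate number belongs to a different animal.

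The values were FPKM (fragment numbers corrected for the length of the transcript and for the size of the library), a unit that allows levels to be compared between genes but holds no read counts, so the depth of each library is unknown. FPKM values summed to between 444888 and 503140 per library. LEP, the gene for leptin, went against the labels of both replicate 1 libraries: it was at 50.0 FPKM in WT replicate 1 and listed at 0 in leptin replicate 1, against at most 0.118 FPKM in the other WT libraries and at least 18.3 FPKM in the other leptin libraries. The limma calls between the labels and the ratios of the platelet sums are therefore also given without these libraries. Permutation tests, overlap of the groups and list medians are given with all 6. Defining markers of T cells (CD3E, 213 to 372 FPKM), B cells (CD79A, 133 to 248 FPKM) and monocytes (CD14, 99.9 to 291 FPKM) were present in every library.

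PF4 was the most abundant of the platelet genes. It encodes platelet factor 4, a chemokine stored in the alpha granules (ENSSSCG00000008955, chromosome 8 from 74179569 to 74180796; coordinates are those of the deposited table, and the genome build is not given in the sources used here). It was measured at 358 FPKM in WT replicate 1, 146 in WT replicate 2 and 237 in WT replicate 3, and at 330, 312 and 95.3 FPKM in leptin replicates 1, 2 and 3. The lowest library was thus a leptin library and the next lowest a WT library, and the groups overlapped. Ranked on its mean FPKM, PF4 was number 302 of the 11564 rows, and within single libraries its rank ran from 201 in WT replicate 1 to 753 in leptin replicate 3.

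PPBP encodes the precursor of the chemokine CXCL7, which is also stored in alpha granules. Its row on chromosome 8 (ENSSSCG00000008956, 74173282 to 74175285) lies 4283 bp from PF4 and was at 9.07, 4.71 and 5.27 FPKM in WT replicates 1, 2 and 3 and at 6.09, 5.46 and 3.22 FPKM in leptin replicates 1, 2 and 3. The row on chromosome 5 with the same symbol (ENSSSCG00000000244, 18223850 to 18226402) was at 6.24, 2.497 and 2.86 FPKM in WT replicates 1, 2 and 3 and at 3.88, 3.76 and 1.62 FPKM in leptin replicates 1, 2 and 3. WT replicate 1 was the highest and leptin replicate 3 the lowest library in both rows, and the groups overlapped in both. The rows followed each other closely across the libraries (r = 0.98 on log2(FPKM + 1)). They may share reads if they are near-identical copies, which was not tested, so the split of PPBP between them is uncertain. An unnamed row 3467 bp from the chromosome 5 PPBP (ENSSSCG00000000243, chromosome 5 from 18218053 to 18220382), chosen after its values were seen, was at 27.1, 8.49 and 11.01 FPKM in WT replicates 1, 2 and 3 and at 16.7, 19.2 and 8.87 FPKM in leptin replicates 1, 2 and 3.

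TUBB1, the beta tubulin of the ring of microtubules that gives platelets their disc shape, was the next most abundant (ENSSSCG00000007523, chromosome 17 from 66531834 to 66538801). It was at 106, 42.1 and 82.2 FPKM in WT replicates 1, 2 and 3 and at 98.9, 104 and 56.5 FPKM in leptin replicates 1, 2 and 3. WT replicate 2 and leptin replicate 3 were again the lowest libraries, here with the WT library below the leptin library, and the groups overlapped.

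ITGA2B and ITGB3 encode the alphaIIb and beta3 subunits of the fibrinogen receptor. ITGA2B (ENSSSCG00000017357, chromosome 12 from 19231260 to 19247926) was at 29.4, 13.9 and 20.8 FPKM in WT replicates 1, 2 and 3 and at 22.6, 29.0 and 11.8 FPKM in leptin replicates 1, 2 and 3. The reference table of gene names gives this identifier the name GPATCH8 instead, and no row of the deposited table had that symbol, so the identity of the ITGA2B row rests on the symbol in the deposited table. ITGB3 (ENSSSCG00000017306, chromosome 12 from 16717753 to 16775469) was at 26.5, 12.001 and 14.4 FPKM in WT replicates 1, 2 and 3 and at 16.6, 38.1 and 8.90 FPKM in leptin replicates 1, 2 and 3. For both subunits the highest and the lowest values of the leptin libraries lay on either side of most WT values, and the groups overlapped. ITGB3 had the widest range among the platelet genes, with 4.28 times more in leptin replicate 2 than in leptin replicate 3. The ratio of ITGB3 to ITGA2B was between 0.692 and 0.9004 in 5 libraries and 1.31 in leptin replicate 2.

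GP6, CLEC1B, TREML1 and SELP encode proteins of platelet activation. GP6, the collagen receptor glycoprotein VI (ENSSSCG00000003276, chromosome 6 from 53815294 to 53834161), was at 19.5, 7.48 and 12.4 FPKM in WT replicates 1, 2 and 3 and at 14.8, 23.1 and 10.3 FPKM in leptin replicates 1, 2 and 3. Leptin replicate 2 was the highest library and WT replicate 2 the lowest, with the other libraries mixed between them. A further row, 253432 bp away and without a symbol in the deposited table, is named GP6 by the reference table (ENSSSCG00000026365, chromosome 6 from 54087594 to 54109462) and was not counted among the 10. It was at 17.4, 5.25 and 15.9 FPKM in WT replicates 1, 2 and 3 and at 19.1, 21.7 and 10.2 FPKM in leptin replicates 1, 2 and 3, with WT replicate 2 and leptin replicate 3 again lowest, and reads shared between the GP6 rows would make the level of each uncertain.

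CLEC1B, the receptor CLEC-2 that binds podoplanin (ENSSSCG00000000650, chromosome 5 from 64695365 to 64729282), was at 15.0, 5.06 and 8.68 FPKM in WT replicates 1, 2 and 3 and at 6.93, 11.7 and 6.02 FPKM in leptin replicates 1, 2 and 3. It was the single platelet gene in which leptin replicate 1 was not among the 3 highest libraries. TREML1, a receptor held in alpha granules and exposed on activation (ENSSSCG00000001613, chromosome 7 from 41752081 to 41757318), was at 30.7, 14.8 and 22.7 FPKM in WT replicates 1, 2 and 3 and at 27.2, 27.0 and 15.8 FPKM in leptin replicates 1, 2 and 3. Its values spread least of the platelet genes, with 2.07 times more in the highest than in the lowest library. SELP, the adhesion molecule P-selectin, which endothelial cells also make (ENSSSCG00000006288, chromosome 4 from 88990348 to 89025954), was at 6.28, 4.03 and 4.58 FPKM in WT replicates 1, 2 and 3 and at 5.46, 7.96 and 3.79 FPKM in leptin replicates 1, 2 and 3. The groups overlapped for CLEC1B, TREML1 and SELP as well.

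**Figure D1:**
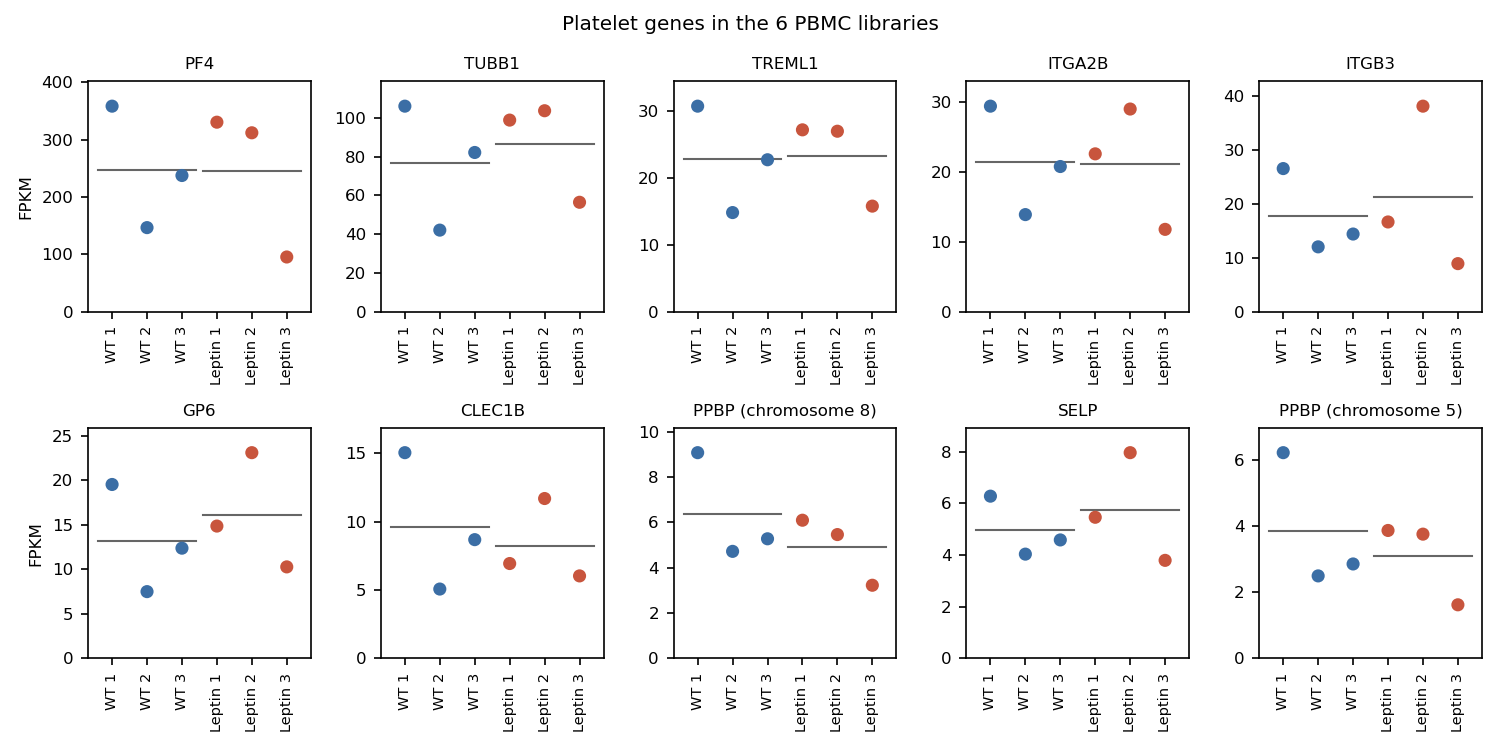
FPKM of the 10 rows of platelet genes in each of the 6 libraries, 1 panel per row with its own axis from 0; each point is a library (blue WT, red leptin-overexpressing) and the horizontal lines are group means. In every panel WT replicate 2 and leptin replicate 3 are the lowest points, such as 146 and 95.3 FPKM for PF4, and the groups overlap.

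Ordered by mean FPKM over the 6 libraries, PF4 (247) stood above TUBB1 (81.6), TREML1 (23.0), ITGA2B (21.3), ITGB3 (19.4), GP6 (14.6), CLEC1B (8.90), PPBP on chromosome 8 (5.64), SELP (5.35) and PPBP on chromosome 5 (3.48). PF4 was above TUBB1 within every library, although its lowest value (95.3 FPKM) was below the highest of TUBB1 (106 FPKM), and TUBB1 did not overlap with TREML1 across libraries. TREML1, ITGA2B, ITGB3 and GP6 had overlapping ranges across libraries. Within every library GP6 was below TREML1 and below ITGA2B, at 0.538 to 0.870 times the level of ITGA2B, while ITGB3 was the highest of these genes in leptin replicate 2 and the lowest in leptin replicate 3. CLEC1B was below GP6 and above PPBP on chromosome 8 within every library, with overlapping ranges, while PPBP on chromosome 8 and SELP changed places between libraries. PPBP on chromosome 5 was the lowest row in every library. The level of PF4 was 3.37, 3.48 and 2.89 times that of TUBB1 in WT replicates 1, 2 and 3 and 3.34, 3.004 and 1.69 times that of TUBB1 in leptin replicates 1, 2 and 3, and so was lowest relative to TUBB1 in leptin replicate 3.

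No difference between the labelled genotypes passed the test for any of the 10 rows. PF4 averaged 247 ± 106 FPKM in WT and 246 ± 131 FPKM in leptin libraries (SD, n = 3 per group), TUBB1 76.8 ± 32.3 and 86.4 ± 26.0 FPKM, and ITGA2B 21.4 ± 7.78 and 21.1 ± 8.71 FPKM in the same order. The highest fitted difference was that of GP6, with means of 13.1 ± 6.06 FPKM in WT and 16.1 ± 6.51 FPKM in leptin libraries (log2 fold change 0.30, SE 0.37), and the lowest that of PPBP on chromosome 8, with 6.35 ± 2.37 and 4.92 ± 1.51 FPKM (log2 fold change -0.30, SE 0.27). In bulk samples, fewer platelets and less RNA per platelet cannot be told apart.

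Genotypes were compared by a two-sided limma test of log2(FPKM + 1), fitted to the 10735 genes that reached 1 FPKM in 3 or more libraries, and p-values were adjusted over all of these by the Benjamini-Hochberg method. Fold changes on this scale understate the change of low genes such as PPBP and SELP. All 10 rows passed the filter, and each had at least 1 FPKM in every library. None was called at an adjusted p under 0.05, where 0.00932% of all genes tested were called, and none had an unadjusted p under 0.05, where 1.98% of genes were higher and 1.19% lower in leptin libraries. In none did the groups fail to overlap, against 7.63% of genes tested. The adjusted p from limma ran from 0.993 to 0.998, and exact two-sided permutation tests of the FPKM values gave p between 0.6 and 1.0, where the smallest p possible with 3 libraries against 3 is 0.1. Nothing in the labels places the pigs in litters or batches, so no such structure could be fitted, and the p-values treat the 6 animals as independent. Those from limma rest on the spread between animals within each label, with each gene's variance drawn toward that of all genes tested.

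The intervals of the differences were wide. The 95% interval of the log2 fold change, from limma, ran from -1.27 to 1.05 for PF4, from -0.62 to 1.05 for TUBB1, from -0.87 to 0.78 for ITGA2B and from -1.01 to 1.219 for ITGB3. For PF4 these limits stand for a leptin level between 0.414 and 2.07 times the WT level. The narrowest interval was that of SELP, from -0.43 to 0.73, the row with the smallest spread within groups.

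By sign, 5 of the 10 rows were fitted above 0 and 5 below, with a median log2 fold change of 0.00 against 0.06 over all genes tested, of which 63.1% were above 0. TUBB1, TREML1, ITGB3, GP6 and SELP were fitted above 0, with values from 0.05 to 0.30. PF4, ITGA2B, CLEC1B and both PPBP rows were fitted below 0, with values from -0.04 to -0.30. Except for PPBP on chromosome 8, each of these signs turned when some single library was left out, and the median was -0.34 without leptin replicate 2, -0.26 without WT replicate 2, 0.25 without WT replicate 1 and 0.34 without leptin replicate 3. Scaling each library to the same sum (TPM) moved the median of all genes tested from 0.06 to -0.06 and that of the platelet genes from 0.00 to -0.12, and TREML1 and ITGB3 were then below 0. With both replicate 1 libraries left out, the platelet median was 0.23, with 7 rows above 0 and 3 below, and none had an unadjusted p under 0.05 (lowest 0.185, limma), where 0.997% of genes tested were higher and 1.32% lower.

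**Figure D2:**
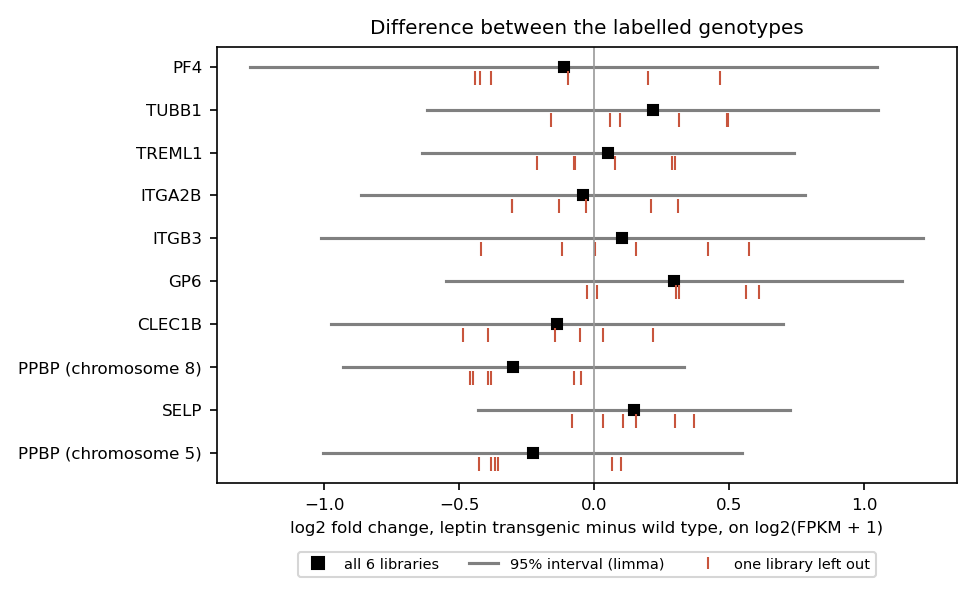
Log2 fold change of each platelet gene on log2(FPKM + 1), leptin-overexpressing minus WT; squares are the values from all 6 libraries, bars the 95% intervals from limma, and red ticks the values with 1 library left out. All intervals span 0, and the ticks fall on both sides of 0 for every row except PPBP on chromosome 8, whose ticks lie between -0.46 and -0.05.

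The spread of the platelet genes among animals of 1 label was wider than the difference between the label means. Summed over the 10 rows, platelet FPKM was 607, 253 and 411 in WT replicates 1, 2 and 3 and 533, 562 and 213 in leptin replicates 1, 2 and 3. These sums were 0.136%, 0.0563% and 0.0915% of all FPKM in the WT libraries and 0.106%, 0.112% and 0.0456% in the leptin libraries, in the same order. The mean sum was 424 ± 177 FPKM in WT and 436 ± 193 FPKM in leptin libraries (SD, n = 3 per group), a ratio of 1.03. This ratio was 0.928 with libraries scaled to TPM and 0.972 with median-of-ratios scaling, so its direction turned with the scaling. Within WT the highest sum was 2.399 times the lowest, and within the leptin libraries 2.63 times. Leaving out 1 library at a time gave ratios between the labels from 0.856 (without WT replicate 2) to 1.31 (without WT replicate 1), and leaving out both replicate 1 libraries gave 1.17.

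PF4 was the largest contributor to the sum, with more than all other rows together in 5 of the 6 libraries. It contributed 59.0%, 57.9% and 57.7% in WT replicates 1, 2 and 3, 62.0% and 55.5% in leptin replicates 1 and 2, and 44.7% in leptin replicate 3. Without PF4 the sum averaged 176 ± 71.2 FPKM in WT and 190 ± 66.8 FPKM in leptin libraries, a ratio of 1.08 (1.31 with both replicate 1 libraries left out), and WT replicate 2 (107 FPKM) was then the lowest library, followed by leptin replicate 3 (118 FPKM).

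The order of the libraries was nearly the same from one platelet gene to the next. WT replicate 2 and leptin replicate 3 were the 2 lowest libraries in all 10 rows, with WT replicate 2 the lowest in 4 and leptin replicate 3 in 6. WT replicate 1 was the highest in 7 rows and leptin replicate 2 in 3, and both were among the 3 highest in all 10. Leptin replicate 1 was among the 3 highest in 9 rows and WT replicate 3 in 1. The libraries at each end of the order therefore came from both labels.

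Each platelet gene also varied more than most genes. The highest library was between 2.07 and 4.28 times the lowest, with a median of 2.90 over the 10 rows. The median was 1.61 over the tested genes above 0 in every library, and 8.95% of tested genes reached 2.90. The SD within groups on log2(FPKM + 1) was 0.37 (SELP) to 0.84 (PF4), with a median of 0.58 against 0.22 over all genes tested.

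**Figure D3:**
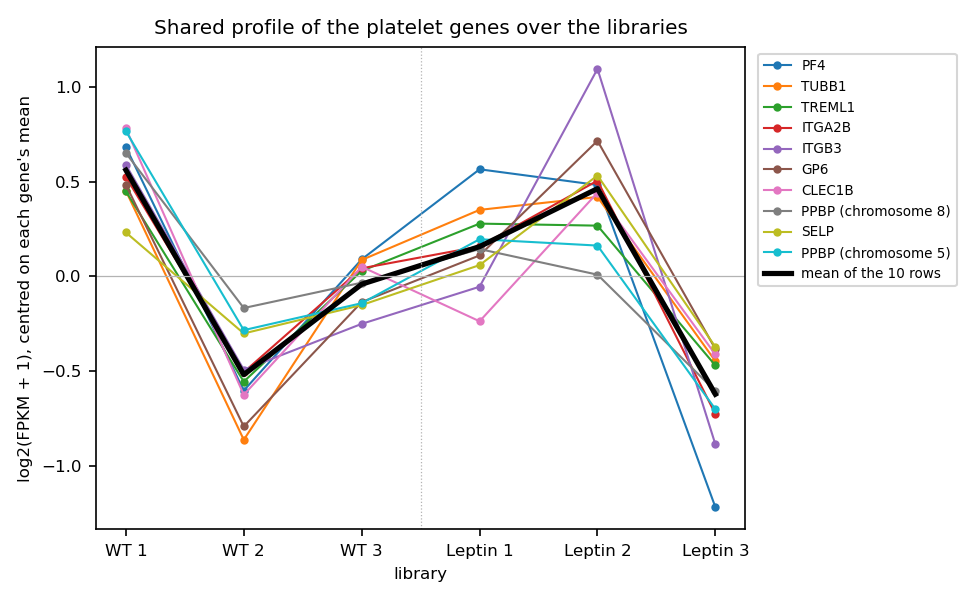
Log2(FPKM + 1) of each platelet gene, centred on its own mean, across the 6 libraries, with the mean over the 10 rows in black. The mean profile is highest in WT replicate 1 (0.56) and leptin replicate 2 (0.46) and lowest in WT replicate 2 (-0.52) and leptin replicate 3 (-0.62), while PF4 falls furthest in leptin replicate 3 (-1.217).

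Over the 45 pairs of rows, Pearson's r on log2(FPKM + 1) across the 6 libraries ran from 0.62 (GP6 with PPBP on chromosome 8) to 0.99 (ITGB3 with SELP), with a median of 0.84 against 0.16 over pairs of all genes tested. The points of each pair share library and scaling. Of the 10 rows, ITGA2B followed the mean of the others most closely (r = 0.99) and PPBP on chromosome 8 least (r = 0.82). Slopes against the mean profile differed, from 0.64 for SELP and 0.71 for PPBP on chromosome 8 to 1.36 for ITGB3 and 1.45 for PF4, and the added 1 FPKM flattens the slopes of the low genes.

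Of these pairs, 3 were picked by role and tested by exact permutation over the 720 pairings of the 6 libraries. For the integrin subunits ITGA2B and ITGB3, r was 0.92 (exact permutation p = 0.00556, adjusted over the 3 pairs 0.00833) and Spearman's rho 0.94 (exact permutation p = 0.0167, adjusted 0.025). For the neighbouring chemokine genes PF4 and PPBP on chromosome 8, r was 0.88 (exact permutation p = 0.00278, adjusted 0.00833) and rho 1.0 (exact permutation p = 0.00278, the smallest the pairings can give, adjusted 0.00833). For PF4 and TUBB1, r was 0.87 (exact permutation p = 0.075, adjusted 0.075), which missed the threshold, and rho was 0.89 (exact permutation p = 0.0333, adjusted 0.0333). Without WT replicate 2 and leptin replicate 3, the libraries farthest from the median of the first gene of each pair, r was 0.93, 0.73 and 0.95 for these pairs in the same order.

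Departures of each row from its own fitted line on the mean profile were read on the log2 scale. The farthest were 0.47 for ITGB3 in leptin replicate 2, -0.39 for CLEC1B in leptin replicate 1, -0.34 for TUBB1 in WT replicate 2 and 0.34 for PF4 in leptin replicate 1. PF4 in leptin replicate 3, the lowest point of any row, departed by -0.31 from its line. ITGA2B departed least, by at most 0.086 in either direction.

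Genes outside the 10 rows were ranked by their likeness to the mean platelet profile, as Pearson's r over the 6 libraries. The median r of these 10725 genes was -0.20, and 64 of them (0.597%) reached 0.9, of which 15 had no symbol in either source. The named genes most like it were DRC1 (r = 0.995), SMKR1 (0.98), BNIP3L (0.98), PARVB (0.98), TPM1 (0.98), FAM213A (0.98), GGT1 (0.98), CLU (0.97), PDK3 (0.97) and RNF10 (0.97). Fitted log2 fold changes of these 10 genes between the labels ran from -0.04 (SMKR1) to 0.12 (BNIP3L). BNIP3L, which acts in the removal of mitochondria, including that of maturing red cells, was at 71.2, 41.8 and 53.1 FPKM in WT replicates 1, 2 and 3 and at 61.6, 76.2 and 43.5 FPKM in leptin replicates 1, 2 and 3. CLU, which encodes clusterin, a protein held in platelet alpha granules, was at 320, 103 and 218 FPKM in WT replicates 1, 2 and 3 and at 255, 270 and 107 FPKM in leptin replicates 1, 2 and 3. PARVB, an adaptor between integrins and actin, was at 44.9, 27.2 and 36.2 FPKM in WT replicates 1, 2 and 3 and at 42.1, 50.0 and 25.9 FPKM in leptin replicates 1, 2 and 3. In each of the 10 genes, WT replicate 2 or leptin replicate 3 was lowest. They were picked for following the platelet profile, so their low libraries and small fold changes follow from that choice.

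Other platelet genes were taken from 3 lists, of receptors and adhesion molecules, of granule proteins and chemokines, and of signalling and cytoskeletal proteins. Of their 67 tested genes, 7 (10.4%) reached an r of 0.9: the ADP receptor gene P2RY1, CLU, CMTM5, PARVB, the signalling regulator RGS18, and the tropomyosin genes TPM1 and TPM4. No gene of the 79 tested in the erythrocyte and leukocyte lists reached 0.9. GP1BA, the von Willebrand factor binding subunit of the receptor that holds GP9, was at 6.26, 3.45 and 6.42 FPKM in WT replicates 1, 2 and 3 and at 6.09, 5.67 and 3.83 FPKM in leptin replicates 1, 2 and 3, with the same libraries lowest (r = 0.84). GP5, of the same receptor, was low, between 0.529 and 1.70 FPKM. GP1BB, the remaining subunit, was listed at 0 in 4 libraries and at 14.6 FPKM in WT replicate 2 and 17.7 FPKM in leptin replicate 2, and did not pass the filter.

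**Figure D4:**
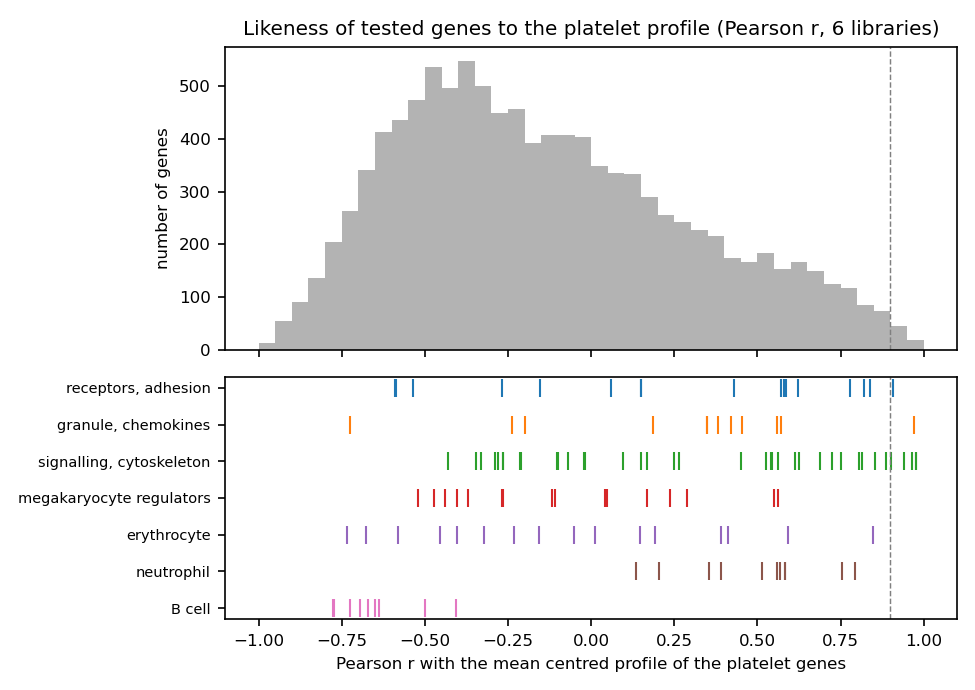
Upper panel, number of tested genes outside the platelet rows by Pearson's r with the mean platelet profile over the 6 libraries; lower panel, r of each tested gene of 7 lists, 1 tick per gene, with the dashed line at 0.9. Of all genes, 64 lie at or beyond the line, against 7 of the 67 genes in the upper 3 lists, and the 9 B cell genes have a median of -0.67.

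Not all genes of platelet function followed the profile. In the receptor list the 4 highest by mean FPKM were CD63 (368), ITGB1 (109), SLC44A2 (89.4) and CD9 (87.0), with r of 0.15, -0.27, -0.15 and 0.57. In the granule list they were SRGN (1481), CCL5 (568), CLU (212) and TGFB1 (192), with r of 0.42, -0.20, 0.97 and 0.19. In the signalling list they were FCER1G (1422), ZYX (440), PLEK (253) and TLN1 (246), with r of 0.56, 0.63, 0.25 and 0.81. Of these 12 abundant genes CLU alone reached 0.9. Lymphocytes and monocytes also make many of these proteins.

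No gene of these lists was called between the labels at an adjusted p under 0.05 from limma. By unadjusted p, 0 of 17 tested receptor genes, 0 of 12 granule genes and 1 of 38 signalling genes passed in either direction, where 1.98% of all genes tested were higher and 1.19% lower in leptin libraries, so these counts were near the share over all genes. That gene was RGS10, a regulator of G protein signalling, at 28.9, 26.1 and 30.9 FPKM in WT replicates 1, 2 and 3 and at 40.0, 46.6 and 33.1 FPKM in leptin replicates 1, 2 and 3 (log2 fold change 0.46, SE 0.17, adjusted p = 0.993 from limma). Among 16 tested transcription factors and regulators of megakaryocytes, 1 passed by unadjusted p, beside the same shares over all genes: GFI1B, a repressor needed in megakaryocyte and erythroid development. It was at 8.71, 10.97 and 12.03 FPKM in WT replicates 1, 2 and 3 and at 13.3, 16.0 and 15.8 FPKM in leptin replicates 1, 2 and 3 (log2 fold change 0.48, SE 0.17, adjusted p = 0.993 from limma). With both replicate 1 libraries left out, none of the 4 lists had a gene at an unadjusted p under 0.05 in limma, with log2 fold changes of 0.46 for RGS10 and 0.43 for GFI1B. Scaled to TPM, the unadjusted p of both was also above 0.05, with log2 fold changes of 0.33 and 0.37. Neither RGS10 (r = 0.45) nor GFI1B (r = -0.27) reached an r of 0.9 with the platelet profile. Median log2 fold changes were 0.02 for receptors, -0.11 for granule proteins, 0.09 for signalling and 0.07 for megakaryocyte regulators, against 0.06 over all genes tested.

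The most abundant of the megakaryocyte regulators, NFE2 (222 FPKM on average), NBEAL2 (104), LMO2 (70.2) and LDB1 (67.5), had r of 0.56, 0.24, -0.52 and -0.47 with the platelet profile. The list's median r was -0.11, and none of its genes reached 0.9.

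Markers of other blood cells were read beside the platelet sum in each library. The 16 tested erythrocyte genes had a median r of -0.10. HBB, the beta chain of haemoglobin, was at 211, 59.5 and 19.2 FPKM in WT replicates 1, 2 and 3 and at 17.7, 24.98 and 97.1 FPKM in leptin replicates 1, 2 and 3, so that leptin replicate 3, lowest in platelet FPKM, was second highest in HBB. Of the other abundant erythrocyte genes, SLC25A39 (34.7 FPKM on average) had r of -0.58, EPB41 (26.3) -0.45 and TMOD1 (16.8) 0.85. No tested erythrocyte gene had an unadjusted p under 0.05 between the labels in limma.

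The sums of neutrophil and of monocyte markers had the same 2 highest libraries as the platelet sum, while their lowest libraries differed in whole or in part. The summed FPKM of the neutrophil markers was 4558, 1779 and 1033 in WT replicates 1, 2 and 3 and 1033, 2455 and 1420 in leptin replicates 1, 2 and 3, so WT replicate 1 and leptin replicate 2 led both this sum and the platelet sum. Monocyte markers summed to 908, 507 and 402 FPKM in WT replicates 1, 2 and 3 and to 558, 949 and 650 FPKM in leptin replicates 1, 2 and 3, with the same 2 libraries highest and WT replicates 3 and 2 lowest. The neutrophil list had 13 rows in the table, in which ELANE, the neutrophil elastase, was between 0.275 and 1.05 FPKM, and S100A8, which monocytes also make, ran from 66.5 to 699 FPKM. Leptin replicate 1, at 533 FPKM for the platelet genes, was among the lowest in neutrophil markers. The sum of the B cell markers ran the other way in part (r = -0.65 with the mean platelet profile, on the log2 scale). It was at 417, 778 and 751 FPKM in WT replicates 1, 2 and 3 and 744, 585 and 653 FPKM in leptin replicates 1, 2 and 3. Leptin replicate 3, lowest in platelet FPKM, was thus below leptin replicate 1 in B cell markers as well. T cell markers summed to between 910 FPKM in leptin replicate 2 and 1549 FPKM in leptin replicate 3. NK cell markers summed to between 1997 and 2757 FPKM, with leptin replicate 2 the highest. FCER1G, which monocytes also make and the platelet signalling list also holds, gave 1202.5 to 1985 FPKM of the NK cell sum. Without FCER1G, a choice made after its values were seen, the NK cell markers summed to 1069, 655 and 1267 FPKM in WT replicates 1, 2 and 3 and to 1059, 772 and 1184 FPKM in leptin replicates 1, 2 and 3, with WT replicate 2 and leptin replicate 2 lowest. Endothelial markers, read because SELP is also made by endothelium, summed to between 53.8 and 74.3 FPKM (median r of its 8 tested genes with the platelet profile 0.30). PECAM1 (r = 0.43), ENG and ESAM are also in the platelet receptor list, and PECAM1 alone gave 19.0 to 33.6 FPKM. The sum therefore does not read endothelial RNA alone. Of the endothelial genes, EGFL7 (r = 0.89, 4.02 to 9.58 FPKM) and TIE1 (r = 0.89, 6.93 to 13.6 FPKM) were nearest to the platelet profile, followed by ESAM (r = 0.78). ERG (r = -0.70) and ENG (r = -0.59) ran against it, and the part of endothelial RNA in the SELP values was not tested. Between the labels, limma called no gene of these lists at an adjusted p under 0.05, and by unadjusted p it gave 1 of 11 tested neutrophil genes higher, 1 of 12 monocyte genes lower, 1 of 16 NK cell genes higher, and 0 of 15 T cell, 0 of 9 B cell and 0 of 8 endothelial genes in either direction, beside 1.98% higher and 1.19% lower over all genes tested. With both replicate 1 libraries left out, limma again called none at an adjusted p under 0.05, and the unadjusted counts were 0 for neutrophil, NK cell, T cell, endothelial and erythrocyte genes, 2 higher and 2 lower of 12 monocyte genes, and 2 lower of 9 B cell genes, beside 0.997% higher and 1.32% lower of all 10431 genes in that fit. The part that the makeup of the preparations has in the platelet values was not tested.

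**Figure D5:**
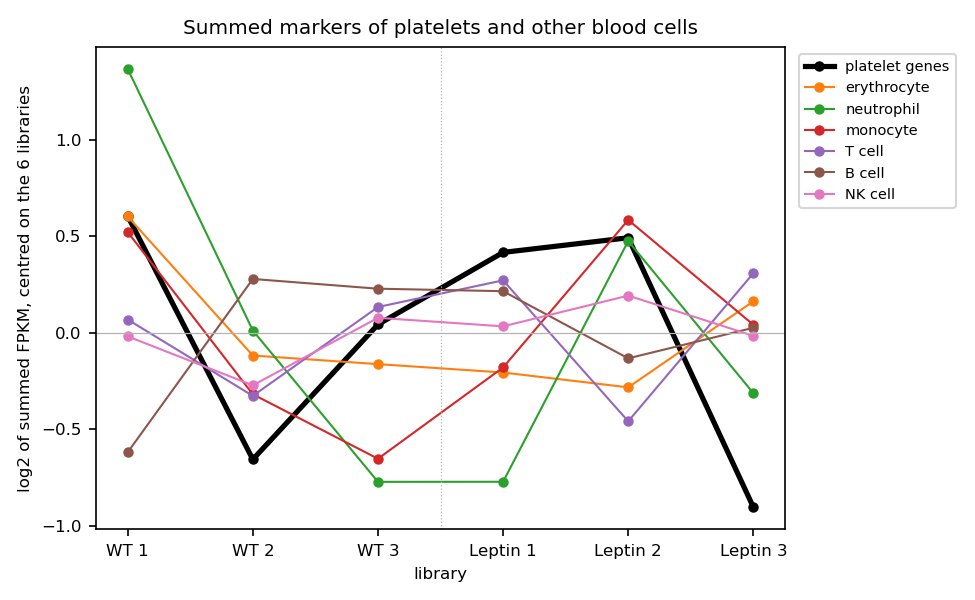
Log2 of the summed FPKM of the platelet rows (black) and of marker lists of 6 other blood cell types in each library, each centred on its mean over the 6 libraries. WT replicate 1 is highest for platelet (607 FPKM), erythrocyte (372) and neutrophil (4558) sums. In that library HBB gives 211 FPKM of the erythrocyte sum, and S100A8, S100A9 and S100A12 give 699, 1031 and 1702 FPKM of the neutrophil sum. WT replicate 2 and leptin replicate 3 are lowest for platelet genes (253 and 213 FPKM), whereas the neutrophil sum is lowest in WT replicate 3 and leptin replicate 1 (1033 FPKM each). The NK cell line includes FCER1G, which gives 1202.5 to 1985 FPKM of that sum.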

How the data were processed

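PBMC RNA of 6 pigs was sequenced, and the authors deposited 1 FPKM value per gene and library. The study's methods name paired-end reads of 101 bp, Bowtie on the Ensembl 75 transcriptome and RSEM, and a strand-specific kit is given in the labels. The submitters' processing notes name FastQC, STAR 2.5, Cuffnorm and DESeq 1.22.1 instead, so which tools made the values is unclear. The genome build is not given in the sources used here. FPKM gives no depth, so no counting error is given, and 74 rows were listed at 0 in some library while reaching 20 FPKM elsewhere. The authors' own fold change, p-value and FDR columns were not used.

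Columns were matched to samples by the animal code, and none was left unmatched. Of the table's rows, 4000 had no symbol, and 1504 of these were named through a reference table of identifiers. Groups were compared with limma 3.58.1 in R 4.3.3 (lmFit and eBayes) on log2(FPKM + 1), genotype only, after tests on simulated data. Single rows were also compared by exact permutation in SciPy 1.17.1.

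The genes, the lists, the tested pairs and the rule for naming genes were chosen with earlier results of these data known. Named were all 10 rows, the 4 highest by mean FPKM in each of the platelet, megakaryocyte and erythrocyte lists with those at an unadjusted p under 0.05, and the 10 named genes most like the platelet profile. P2RY1, CMTM5, RGS18, TPM4, GP1BA, GP5, GP1BB and the marker genes of leukocytes and endothelium (EGFL7, TIE1, ESAM, PECAM1, ERG and ENG) were named outside it, after their values were seen. There were 14 alternatives: pseudocount, filters, scalings, replicate block, variance trend and left-out libraries.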

Additional observations from a re-analysis of the deposited data

How the results depend on the processing

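Under all 14 alternatives 0 of the 10 platelet rows were called by limma at an adjusted p under 0.05, and 0 had an unadjusted p under 0.05, while between 0 and 3 of all genes were called. Scaled to TPM, the log2 fold change became -0.074 for TREML1 and -0.025 for ITGB3, and median-of-ratios scaling gave -0.012 for TREML1. With both replicate 1 libraries left out, ITGA2B was at 0.12 and CLEC1B at 0.30. Leaving out 1 library at a time changed signs, over ranges of -0.44 to 0.47 for PF4, -0.16 to 0.50 for TUBB1, -0.21 to 0.30 for TREML1, -0.30 to 0.31 for ITGA2B, -0.42 to 0.57 for ITGB3, -0.026 to 0.61 for GP6, -0.48 to 0.22 for CLEC1B, -0.083 to 0.37 for SELP and -0.43 to 0.10 for PPBP on chromosome 5. PPBP on chromosome 8 stayed below 0 under all 14 (-0.46 to -0.05). The cause was not tested. Replicate numbers belong to different animals and did not pair the samples (correlations of deviations -0.28, 0.13 and -0.01), and with the replicate block 0 platelet rows and 2 of all genes were called, against 1 without it. The ratios of the platelet sums and the lists with both replicate 1 libraries left out, and all alternatives for RGS10 and GFI1B, were added after seeing the data. RGS10 (0.33 to 0.58) and GFI1B (0.35 to 0.57) stayed above 0 in each and were called in none. In both genes the groups did not overlap, as in 7.63% of genes tested, so leaving out libraries could not turn these signs. Precision rests on 3 animals per label, and depth is unknown.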
